A study of Mus musculus with 11 samples.

Results

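CD45RBhi memory CD8 T cells were compared with naive CD8 T cells by RNA sequencing. The comparison uses 7 of the 11 libraries in the series, chosen by their labels alone: 4 of CD45RBhi cells and 3 of naive cells. The remaining 4 libraries are of CD45RBlo memory cells and take no part. All cells came from spleens of C57BL/6 mice. The memory cells bound a tetramer for NP396, a peptide of the nucleoprotein of lymphocytic choriomeningitis virus (LCMV), and were sorted as CD45RBhi. They were taken 42 to 45 days (week 6) after an intraperitoneal dose of 200000 pfu of the Armstrong strain, which causes an acute infection. The naive cells were sorted as CD44lo CD8 T cells, and a purity above 99% is given for the sorts. The labels of the naive libraries repeat the infection text and carry an entry of 6 to 8 weeks whose meaning is not stated, so a difference in age, or in the infection of the mice, cannot be told apart from the difference between the groups. The labels do not say that replicates come from separate animals, and the p-values then cover only the spread among these libraries, some of which may be technical.

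Naive CD8 T cells circulate through spleen and lymph nodes in a resting state until they meet a peptide on an MHC class I molecule. After an acute infection most of the responding cells die, and those that remain as memory cells persist without antigen under the cytokines IL-7 and IL-15. Memory cells make cytokines and kill infected cells faster than naive cells do, and they can enter sites other than lymphoid tissue. CD45, encoded by Ptprc, is a phosphatase of antigen receptor signalling, and CD45RB is its splice form with exon B, which counts per gene do not resolve.

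Libraries held 18024793 to 23151297 counts. Levels are given as CPM, the counts of a gene scaled to a common library size with TMM factors. A count of 0 allows up to 3 counts, or 0.13 to 0.166 CPM in a library. The first principal component of the 1000 most variable genes held 91.8% of the variance and parted the groups. The second held 2.71% and spread the memory libraries, from 24.2 for CD45RBhi replicate 1 to -17.5 for replicate 2, while the naive libraries lay between -0.14 and 0.37. Markers of CD8 T cells were high in every library. Cd8b1 was at 2449, 2294 and 2494 CPM in the naive and 2741, 2983, 2759 and 3003 CPM in the CD45RBhi libraries, and Cd4 had 0 to 9 counts. Cd44, on which naive cells were sorted, was at 14.3, 12.3 and 18.04 CPM in the naive and 332, 189.6, 255 and 257 CPM in the CD45RBhi libraries, and the sort itself fixes that difference. Cd8a, the other CD8 chain, was at 1399, 1239 and 1399.6 CPM in the naive and 942, 1064, 955 and 1023 CPM in the CD45RBhi libraries and was lower in every CD45RBhi library. Ptprc was at 2711, 2646 and 2656 CPM in the naive and 3036, 2875, 3317 and 2816 CPM in the CD45RBhi libraries (log2 fold change 0.17 ± 0.073, adjusted p = 0.087; 0.0392 without CD45RBhi replicate 2).

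Markers of other cells differed between the groups, and their part in the results below was not tested. The summed level of 14 erythroid and platelet genes was 258 to 559 CPM in naive and 1.67 to 3.58 CPM in CD45RBhi libraries, and 10 of 10 tested members were lower. The 20 B cell genes summed to 1296 to 1500 CPM in naive and 243 to 534 CPM in CD45RBhi libraries, with 14 of 17 tested members lower and 1 higher, Cd22. Immunoglobulin Ighm alone was at 1245, 1091 and 1200.2 CPM in the naive and 170.1, 486, 256 and 313 CPM in the CD45RBhi libraries, whereas the B cell receptor component Cd79a had 89 to 125 counts in naive and 4 to 35 in CD45RBhi libraries. The 25 myeloid genes summed to 67.4 to 105.5 CPM and 43.1 to 51.5 CPM, with 11 of 14 tested members lower and 2 higher. The 15 NK cell genes summed to 1196 to 1258 CPM and 5832 to 6661 CPM, and most of them, such as Prf1 and Nkg7, are also expressed by CD8 T cells. Ncr1, which is defining for NK cells, had 0 to 2 counts in every library. Dendritic cell genes summed to 240.5 to 288 CPM and 174 to 320.0 CPM, with 2 of 7 tested members higher and 2 lower (log2 fold changes -7.237 to 7.825). CD4 and regulatory T cell genes summed to 69.0 to 85.2 CPM and 106.2 to 121 CPM, with 4 of 10 tested members higher and 4 lower (-7.488 to 6.228). The γδ and NKT cell genes summed to 9.88 to 10.6 CPM and 33.5 to 68.9 CPM, with 4 of 7 tested members higher and 2 lower (-4.343 to 8.245). Siglech and Clec9a, which define dendritic cell subsets, had 0 to 7 counts. Foxp3, the factor of regulatory T cells, had 16 to 30 counts in naive libraries and 0 in all 4 CD45RBhi libraries. In bulk samples, fewer cells of a type and less RNA per cell cannot be told apart.

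**Figure D1:**
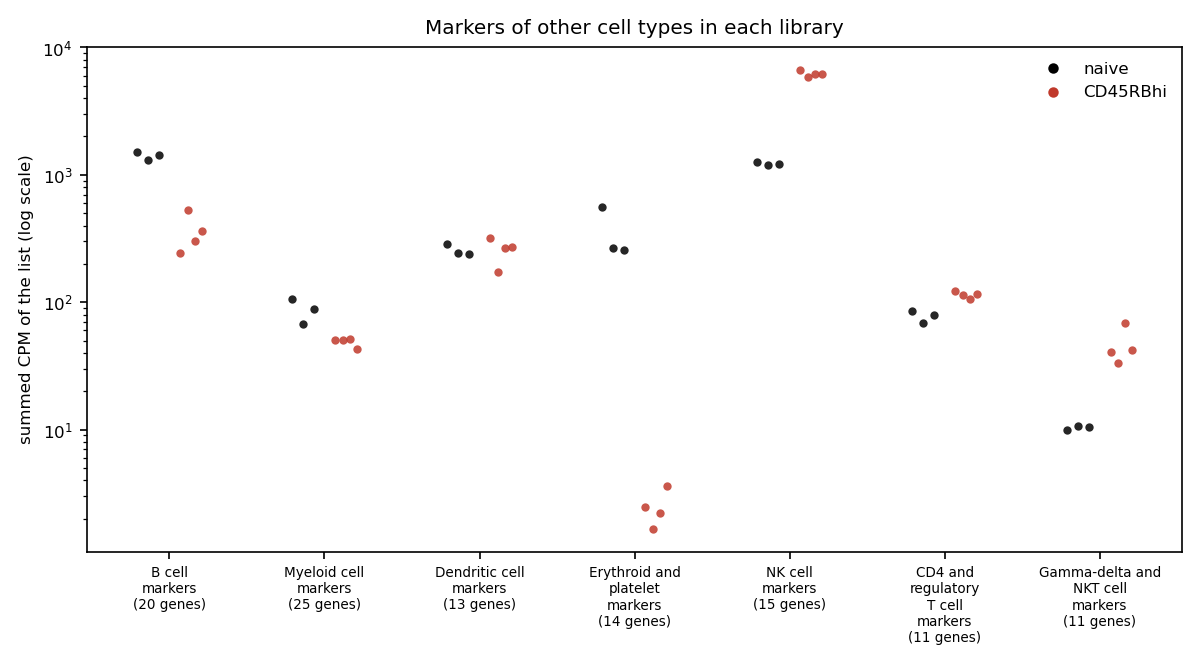
Summed level of marker genes of other cell types (CPM, log scale) in each naive (black) and CD45RBhi (red) library, 1 point per library. Erythroid and platelet markers lie at 258 to 559 CPM in naive and 1.67 to 3.58 CPM in CD45RBhi libraries, and B cell markers at 1296 to 1500 and 243 to 534 CPM.

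The question was how antigen-experienced CD45RBhi cells differ from CD8 T cells before antigen. Of 13338 genes tested, 5443 passed at an adjusted p of 0.05 (edgeR's quasi-likelihood test), which is 40.8%. Of these, 2785 (20.9%) were higher and 2658 (19.9%) lower in CD45RBhi cells. A change of at least 2-fold was seen for 2566 (19.2%), with 1265 higher (9.48%) and 1301 lower (9.75%), and at least 8-fold for 493 higher and 387 lower. The libraries of the groups did not overlap for 6388 of the tested genes (47.9%), among them 5270 of those called. Most called genes therefore have no overlap, so its absence adds little to a call in the lists below. Among the largest changes it was a condition for naming a gene. The median log2 fold change over all genes was -0.02. With scaling by library size only it moved to -0.16, and 2154 genes were then called higher (37.0% of the calls, 51.2% with TMM) and 3668 lower, so the balance of directions rests on the scaling. Tested against a change of 1.5-fold rather than none, 2360 genes passed, 1254 higher and 1106 lower. The counts below are read against these shares, since a list of genes with about 20.9% higher and 19.9% lower does not stand apart from all genes.

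**Figure D2:**
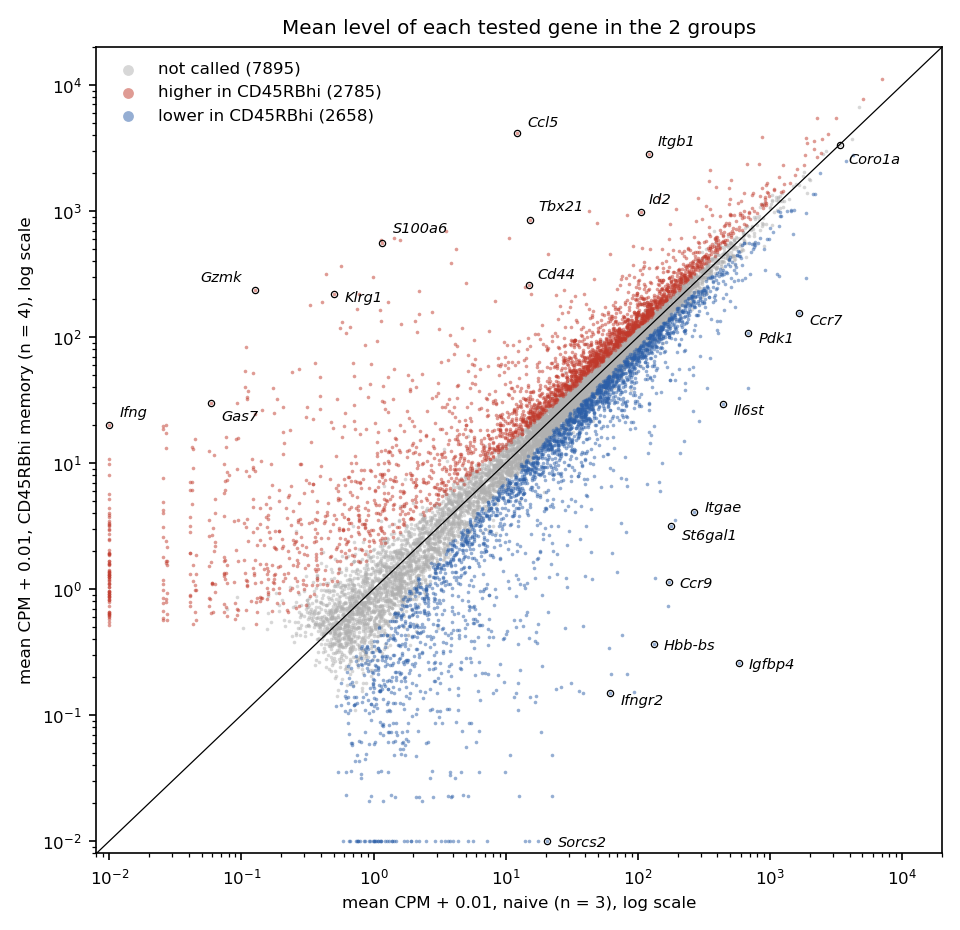
Mean CPM of each tested gene in naive (x) and CD45RBhi (y) libraries, both on log scales with 0.01 added so that means of 0 can be drawn; red and blue points are genes called higher (2785) and lower (2658). Ifng sits on the left edge, with 0 counts in naive libraries, and Sorcs2 on the lower edge, with 0 counts in CD45RBhi libraries.

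Among genes of at least 20 CPM in the higher group, the largest fitted increases included those of Ifng, Gzmk, Ttc39c, Ccr2 and S1pr5. Ifng, the antiviral cytokine interferon gamma, had 0 counts in all 3 naive libraries and 19.7, 18.3, 22.6 and 19.6 CPM in CD45RBhi libraries. That is at least 404-fold higher, taking 3 counts over the naive group as its floor (adjusted p = 4.76e-07). Gzmk, which encodes the granule protease granzyme K, was at 0.0932, 0.105 and 0.15 CPM in the naive and 252, 187, 251 and 249.9 CPM in the CD45RBhi libraries (log2 fold change 10.91 ± 0.23, adjusted p = 4.56e-09, SE). Replicate 2 was the lowest of the 4 memory libraries for Gzmk, and still far above every naive library. Ccr2, a receptor for inflammatory chemokines, was at 0.653, 0.368 and 0.25 CPM in the naive and 403, 222, 344 and 297 CPM in the CD45RBhi libraries (log2 fold change 9.51 ± 0.34, adjusted p = 7.40e-08). S1pr5, a receptor for the exit signal sphingosine 1-phosphate, was at 0.699, 0.421 and 0.55 CPM in the naive and 461, 404, 342 and 263 CPM in the CD45RBhi libraries (log2 fold change 9.34 ± 0.29, adjusted p = 2.72e-08). Both receptors were near or below 0.7 CPM in naive cells, and in both CD45RBhi replicate 1 was the highest, while the lowest was replicate 2 for Ccr2 and replicate 4 for S1pr5. Itga1, the α1 chain of a collagen-binding integrin, was at 0.186, 0 and 0.15 CPM in the naive and 74.5, 41.6, 45.8 and 45.4 CPM in the CD45RBhi libraries (log2 fold change 8.73 ± 0.45, adjusted p = 4.91e-07), with replicate 1 above the other 3 memory libraries.

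Further genes with increases of this size included 2 calcium-binding or membrane proteins of motile cells and a potassium channel. S100a6 was at 1.07, 1.05 and 1.35 CPM in the naive and 522, 470.2, 592 and 631 CPM in the CD45RBhi libraries (log2 fold change 8.89 ± 0.18, adjusted p = 4.56e-09), and Emp1, a tetraspan membrane protein, at 0.186, 0.105 and 0 CPM in the naive and 63.6, 37.1, 67.7 and 47.1 CPM in the CD45RBhi libraries (log2 fold change 8.999 ± 0.45, adjusted p = 4.73e-07). Kcnj8, the pore subunit of an ATP-sensitive potassium channel, was at 0.419, 0.421 and 0.35 CPM in the naive and 236, 219, 169.8 and 139 CPM in the CD45RBhi libraries (log2 fold change 8.89 ± 0.29, adjusted p = 3.05e-08). The naive libraries lay at the lower limit of detection for Emp1. The lack of overlap between the groups for these 3 genes follows from the rule that named them. Ttc39c rose from 0.0975 ± 0.0437 to 83.2 ± 10.4 CPM (log2 fold change 9.63 ± 0.24, adjusted p = 7.36e-09). Gas7, a regulator of cell shape, had 3 counts over the naive group against 2418 over the CD45RBhi group, a ratio of 599 (95% interval 205 to 2910, counting error only, adjusted p = 4.76e-07). The rest of the 15 were Klrb1c, Klrc1, Klrg1, Klre1 and Gzma, which are described with their families.

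The largest decreases included a growth factor binding protein, receptor subunits, enzymes and the globins. Sorcs2, a sorting receptor, was at 22.1, 19.2 and 20.8 CPM in naive libraries and had 0 counts in all 4 CD45RBhi libraries, at least 561-fold lower against 3 counts over that group (adjusted p = 1.54e-06). Igfbp4, which binds insulin-like growth factors, was at 647, 633 and 454 CPM in the naive and 0.254, 0.44, 0.201 and 0.105 CPM in the CD45RBhi libraries (log2 fold change -11.099 ± 0.25, adjusted p = 4.56e-09). Ramp1, a partner that turns a receptor into one for the neuropeptide CGRP, was at 82.7, 92.5 and 103 CPM in the naive and 0.203, 0, 0.0502 and 0.316 CPM in the CD45RBhi libraries (log2 fold change -9.35 ± 0.35, adjusted p = 8.06e-08). In these 3 genes the highest memory library stayed below 0.5 CPM. Ifngr2, the signalling chain of the interferon gamma receptor, was at 61.5, 61.3 and 61.7 CPM in the naive and 0.254, 0, 0.15 and 0.158 CPM in the CD45RBhi libraries (log2 fold change -8.76 ± 0.31, adjusted p = 5.24e-08). Its partner chain Ifngr1, which binds the cytokine, went the other way, at 372, 318 and 341 CPM in the naive and 761, 801, 713 and 714 CPM in the CD45RBhi libraries (log2 fold change 1.12 ± 0.083, adjusted p = 5.32e-06). The cytokine Ifng and the binding chain were thus higher and the signalling chain lower in the same libraries.

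Ampd1, an AMP deaminase, had 1363 counts over the naive and 1 over the CD45RBhi libraries (ratio 1830, 95% interval 329 to 72500, adjusted p = 8.24e-08). Kcna2, a voltage-gated potassium channel, had 1348 and 3 counts (ratio 605, 95% interval 206 to 2940, adjusted p = 8.33e-07). Eng, a co-receptor of TGF-β family ligands, was at 37.9, 35.8 and 32.99 CPM in the naive and 0.102, 0.132, 0.351 and 0 CPM in the CD45RBhi libraries (log2 fold change -7.86 ± 0.37, adjusted p = 2.84e-07), and the actin-binding protein Cnn3 fell from 76.3 ± 1.74 to 0.425 ± 0.357 CPM (log2 fold change -7.45 ± 0.40, adjusted p = 8.47e-07). The globins Hba-a1, Hba-a2, Hbb-bs and Hbb-bt and the haem enzyme Alas2, products of erythroid cells, also belong to the 15 (log2 fold changes -8.66 to -7.29), and the erythroid marker sums above move with them. Hba-a1 and Hba-a2 are near-identical copies, as are Hbb-bs and Hbb-bt, so the split of reads within each pair is uncertain.

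Promoters of the first 3 genes in each direction that RefSeq's table (GRCm38.p6) covers are shown. Each is at a start site in that table of a gene among those with the largest changes. Each window runs 5′ to 3′ on the gene's strand from 250 bases before the start to 50 after it, and capitals mark matches to 15 motifs searched on both strands.
Ifng, chr10:118440796-118441095, + strand: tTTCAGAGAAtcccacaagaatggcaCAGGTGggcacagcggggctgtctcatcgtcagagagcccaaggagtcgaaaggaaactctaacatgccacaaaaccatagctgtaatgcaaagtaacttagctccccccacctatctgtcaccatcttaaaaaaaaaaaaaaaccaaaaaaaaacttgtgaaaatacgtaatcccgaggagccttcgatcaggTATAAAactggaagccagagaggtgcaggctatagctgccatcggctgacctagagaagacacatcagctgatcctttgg
Gzmk, chr13:113180916-113181215, - strand: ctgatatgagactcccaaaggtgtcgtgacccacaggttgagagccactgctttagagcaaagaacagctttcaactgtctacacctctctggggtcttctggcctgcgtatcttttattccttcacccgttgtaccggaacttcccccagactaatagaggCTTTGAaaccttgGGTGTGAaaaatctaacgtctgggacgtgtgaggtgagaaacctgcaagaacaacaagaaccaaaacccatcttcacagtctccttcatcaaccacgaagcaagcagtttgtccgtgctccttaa
Ccr2, chr9:124101933-124102232, + strand: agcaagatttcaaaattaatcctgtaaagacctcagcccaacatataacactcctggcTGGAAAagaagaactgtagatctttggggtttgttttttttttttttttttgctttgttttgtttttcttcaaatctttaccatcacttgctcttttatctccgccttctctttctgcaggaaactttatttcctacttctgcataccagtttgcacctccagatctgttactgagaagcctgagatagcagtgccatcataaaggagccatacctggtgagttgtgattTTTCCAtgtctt
Igfbp4, chr11:99040994-99041293, + strand: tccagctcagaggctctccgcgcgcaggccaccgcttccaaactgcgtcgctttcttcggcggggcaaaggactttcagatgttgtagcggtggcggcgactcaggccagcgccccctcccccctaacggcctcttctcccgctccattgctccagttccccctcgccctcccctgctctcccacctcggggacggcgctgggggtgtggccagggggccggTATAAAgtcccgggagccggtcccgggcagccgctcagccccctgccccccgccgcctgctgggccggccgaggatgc
Ramp1, chr1:91179572-91179871, + strand: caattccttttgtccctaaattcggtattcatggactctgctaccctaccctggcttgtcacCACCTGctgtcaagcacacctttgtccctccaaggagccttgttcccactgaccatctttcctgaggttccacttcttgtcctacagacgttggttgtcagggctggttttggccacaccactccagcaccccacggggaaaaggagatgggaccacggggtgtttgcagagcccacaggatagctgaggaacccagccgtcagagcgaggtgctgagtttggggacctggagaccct
Kcna2, chr3:107101317-107101616, + strand: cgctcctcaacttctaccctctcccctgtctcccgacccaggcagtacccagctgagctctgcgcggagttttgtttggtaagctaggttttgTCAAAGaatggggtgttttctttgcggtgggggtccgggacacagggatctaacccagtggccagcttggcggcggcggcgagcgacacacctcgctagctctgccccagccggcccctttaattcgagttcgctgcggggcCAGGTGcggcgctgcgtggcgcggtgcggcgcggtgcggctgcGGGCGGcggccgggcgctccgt

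In the Ifng window a STAT motif (TTCNNNGAA, 8.30% of all 32851 RefSeq promoter windows) lay at -249, an E-box of ZEB and E proteins (CAGGTG, 20.2%) at -224 and a TATA box (TATAAA, 13.6%) at -30. The Gzmk window held a TCF and LEF motif (CTTTGA, 16%) at -88 and a T-box (GGTGTGA, 3.98%) at -75. The Ccr2 window held the NFAT core (TGGAAA, 21.4%) at -192 and, on the reverse strand, at 38. The Igfbp4 window held a TATA box at -28 and had a GC content of 71.3%, against 46.0% in Ifng. The Ramp1 window held the E-box at -188, and the Kcna2 window held the TCF and LEF motif at -157, the E-box at -15 and an SP and KLF GC box (GGGCGG, 35.7%) at 28. The other motifs searched were CACGTG (7.15%), TGTGGT of RUNX (16.8%), TGANTCA of AP-1 (7.81%), CCGGAAG of ETS (8.86%), GGGANNTCC of NF-κB (4.30%), the IRF motif (3.44%), TGACGT of CREB (7.51%) and TGTTTAC of FOXO (3.65%), of which none was found in these 6 windows. A match describes letters and not binding. No comparison of promoters between gene sets was made, because the table covers 76.9% of the tested protein-coding genes, below the minimum of 80%. In GENCODE M21 (GRCm38) the Ifng gene (ENSMUSG00000055170) spans 118441046 to 118445892 on chromosome 10 and Igfbp4 (ENSMUSG00000017493) 99041244 to 99054392 on chromosome 11. Their starts match RefSeq's, but not all do. Gzmk spans 113171608 to 113225908 on the - strand of chromosome 13, so its window lies inside the GENCODE gene and far from its start. GENCODE also starts Ccr2 (124101950) and Kcna2 (107101146) at other bases than RefSeq.

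Among secreted products, the chemokines Ccl5, Ccl4 and Ccl3 rose with Ifng, and the lymphotoxin genes Lta and Ltb fell. Of 14 cytokine and chemokine genes tested, 7 were higher and 3 lower, with a median log2 fold change of 1.83 (all genes -0.02). Ccl5, a chemoattractant for T cells and monocytes, was at 10.7, 11.5 and 14.1 CPM in the naive and 5322, 2958, 4587 and 3723 CPM in the CD45RBhi libraries (log2 fold change 8.42 ± 0.27, adjusted p = 3.67e-08). Ccl4 was at 0.28, 0.316 and 0.1 CPM in the naive and 72.7, 42.2, 48.96 and 45.4 CPM in the CD45RBhi libraries (log2 fold change 7.78 ± 0.35, adjusted p = 2.31e-07), and Ccl3 had 3 counts over the naive and 939 over the CD45RBhi group (adjusted p = 7.40e-07). Every memory library was above every naive one for all 3 chemokines. Tnfsf14, the TNF family ligand LIGHT, rose from 1.88 ± 0.34 to 38.3 ± 3.04 CPM (log2 fold change 4.34 ± 0.17, adjusted p = 8.53e-08). Ltb (-0.598) and Lta (-1.01), which encode the lymphotoxin chains, were lower, and Tnf was at 4.59 to 3.45 CPM and did not pass (log2 fold change -0.41, adjusted p = 0.179). Il2 had 0 to 9 counts in all 7 libraries and was not tested, and Il10 had 0.

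Killing genes rose broadly. Of 19 granule genes, 15 were higher and 1, the protease Ctsl, was lower (median 1.16). Granzyme A (Gzma) was at 1.91, 1.16 and 1.1995 CPM in the naive and 914, 348, 599 and 565 CPM in the CD45RBhi libraries (log2 fold change 8.72 ± 0.42, adjusted p = 4.76e-07). Granzyme B (Gzmb) was at 3.82, 2.21 and 5.55 CPM in the naive and 479, 348, 399.7 and 331 CPM in the CD45RBhi libraries (log2 fold change 6.65 ± 0.29, adjusted p = 2.60e-07). Prf1, the pore-forming perforin, was already at 207, 189.9 and 189.98 CPM in naive libraries and reached 1179, 1063, 999.8 and 898 CPM (log2 fold change 2.403 ± 0.10, adjusted p = 1.85e-07). Both granzymes thus went from a few CPM to a high level, while perforin was expressed before. The granule protein Nkg7 rose from 876 ± 21.05 to 3884 ± 176 CPM (log2 fold change 2.15 ± 0.069, adjusted p = 3.05e-08). Fasl, the death ligand for Fas, was at 0.932, 0.368 and 0.4 CPM in the naive and 155, 139.5, 125 and 109.6 CPM in the CD45RBhi libraries (log2 fold change 7.83 ± 0.27, adjusted p = 4.66e-08). Stx11, a membrane fusion protein needed for granule release, rose from 4.15 ± 0.913 to 88.3 ± 9.896 CPM (log2 fold change 4.41 ± 0.18, adjusted p = 1.23e-07), and the lysosomal protease Ctsd from 393 ± 14.5 to 1561 ± 58.5 CPM (log2 fold change 1.99 ± 0.071, adjusted p = 5.24e-08). The release factors Unc13d (-0.03) and Stxbp2 (0.03) did not pass.

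Inhibitors of such proteases were higher in 7 of 13 genes and lower in 3 (median 0.91). Serpinb9, the inhibitor of granzyme B, was at 35.98, 29.8 and 27.4 CPM in the naive and 231, 158, 200.5 and 186 CPM in the CD45RBhi libraries (log2 fold change 2.64 ± 0.15, adjusted p = 1.12e-06). Serpina3g rose from 4.69 ± 2.52 to 117 ± 15.2 CPM (log2 fold change 4.63 ± 0.32, adjusted p = 4.60e-06), Serpinb6b from 8.82 to 49.8 CPM (2.495) and Cst7, a cystatin of cytotoxic cells, from 126 to 266 CPM (1.08). The metalloproteinase inhibitor Timp2 went the other way, at 203, 220.3 and 202 CPM in the naive and 10.3, 8.58, 15.9 and 13.5 CPM in the CD45RBhi libraries (log2 fold change -4.11 ± 0.19, adjusted p = 2.60e-07). The groups overlapped for none of these 5 genes.

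Of 17 tested receptors and adaptors that NK cells also carry, lectin-like receptors among them, 14 were higher (median 4.55). The Fc receptor Fcgr3 was the 1 that fell. Klrg1, a cadherin-binding inhibitory receptor, was at 0.606, 0.316 and 0.55 CPM in the naive and 250.4, 194, 222 and 212 CPM in the CD45RBhi libraries (log2 fold change 8.77 ± 0.20, adjusted p = 4.56e-09). Klrc1, which encodes the inhibitory receptor NKG2A, was at 1.49, 1.21 and 0.7 CPM in the naive and 706, 530.5, 586 and 530.1 CPM in the CD45RBhi libraries (log2 fold change 9.004 ± 0.23, adjusted p = 8.34e-09). Klrk1, which encodes the activating receptor NKG2D, was at 2.38, 4.32 and 3.95 CPM in the naive and 641, 800.1, 694 and 628 CPM in the CD45RBhi libraries (log2 fold change 7.61 ± 0.22, adjusted p = 1.33e-08). For all 3 the naive libraries lay within a few CPM of 0, and the memory libraries did not reach them. Klrb1c, the gene of the NK1.1 antigen, was at 0.28, 0.474 and 0.2 CPM in the naive and 248, 171, 183 and 118 CPM in the CD45RBhi libraries (log2 fold change 9.13 ± 0.38, adjusted p = 1.85e-07), and Klre1 rose from 0.0966 ± 0.0838 to 39.97 ± 15.7 CPM (log2 fold change 8.57 ± 0.53, adjusted p = 1.91e-06). Klra9, of the Ly49 family, rose from 0.1 ± 0.0543 to 33.2 ± 11.4 CPM (log2 fold change 8.298 ± 0.48, adjusted p = 1.11e-06), but its family members are near-identical, so reads may be split among them. Klrd1, the shared partner CD94, rose only from 99.1 to 222 CPM (1.16), and the adaptors Tyrobp and Fcer1g did not pass. Another 9 listed receptors had too few counts to be tested.

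Among receptors that guide migration, Cx3cr1 and Cxcr3 rose, and Ccr7 and Ccr9, which direct homing to lymph nodes and gut, fell. Of 29 chemoattractant receptor genes, 19 were higher and 4 lower (median 1.91). Cx3cr1, the receptor for fractalkine, was at 1.96, 1.32 and 1.45 CPM in the naive and 779, 474, 567 and 523 CPM in the CD45RBhi libraries (log2 fold change 8.53 ± 0.26, adjusted p = 1.98e-08). Cxcr3, a receptor for interferon-induced chemokines, was at 40.6, 38.8 and 47.5 CPM in the naive and 852, 1088, 994 and 1031 CPM in the CD45RBhi libraries (log2 fold change 4.55 ± 0.13, adjusted p = 1.08e-08). Both were higher in all 4 memory libraries, as were receptors for oxysterols (Gpr183, 1.37), prostaglandin E2 (Ptger2, 1.91) and adenosine (Adora2a, 2.73).

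Ccr7, which directs cells into lymph nodes, was at 1673, 1672 and 1612 CPM in the naive and 92.1, 207, 152 and 169.8 CPM in the CD45RBhi libraries (log2 fold change -3.41 ± 0.23, adjusted p = 3.21e-06). Ccr9, the receptor for a chemokine of thymus and small intestine, was at 194, 163 and 156 CPM in the naive and 1.98, 1.23, 0.351 and 0.947 CPM in the CD45RBhi libraries (log2 fold change -7.24 ± 0.32, adjusted p = 2.84e-07). Both were lower in every memory library than in any naive library. The egress receptor S1pr1 was at 1394 to 1234 CPM and did not pass (log2 fold change -0.18, adjusted p = 0.092).

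Of 32 integrins and adhesion receptors, 21 were higher and 6 lower (median 0.97). Itgb1, the β1 chain that pairs with Itga1 and Itga4, was at 126, 119.999 and 117 CPM in the naive and 2605, 2599.8, 3103 and 3023 CPM in the CD45RBhi libraries (log2 fold change 4.55 ± 0.10, adjusted p = 4.56e-09). Itgb2, the β2 chain, rose from 825 ± 6.86 to 2374 ± 22.9 CPM (log2 fold change 1.52 ± 0.061, adjusted p = 1.12e-07), with its partners Itgal (1.83) and Itgax (7.82). Itgae, the αE chain that binds E-cadherin, was at 291, 278 and 231 CPM in the naive and 5.13, 5.28, 2.31 and 3.74 CPM in the CD45RBhi libraries (log2 fold change -6.01 ± 0.24, adjusted p = 1.45e-07). The β7 chain with which it pairs, Itgb7, rose slightly, from 1839 to 2773 CPM (0.59). Spn, which encodes the mucin CD43, rose from 145 ± 14.6 to 285 ± 64.5 CPM (log2 fold change 0.97 ± 0.18, adjusted p = 0.00194). The galectin Lgals1 and the tetraspanin Cd82 rose from 48.9 to 797 CPM and from 350.1 to 1043 CPM.

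**Figure D3:**
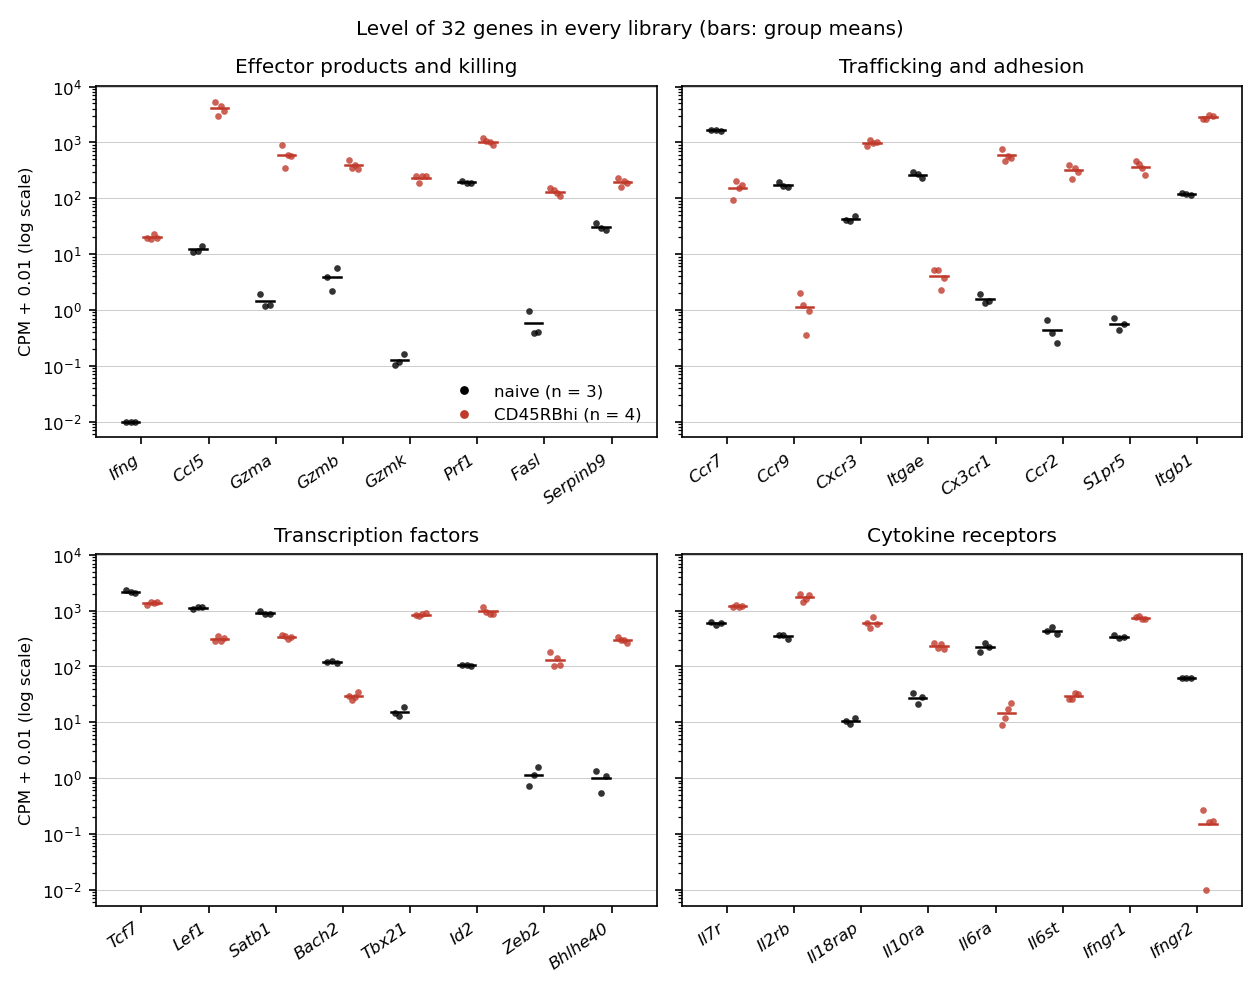
Level of 32 genes in every library (CPM with 0.01 added, log scale), black for naive (n = 3) and red for CD45RBhi (n = 4), with bars at the group means. Ccr7, Ccr9 and Itgae lie lower and Cxcr3, Cx3cr1, Ccr2, S1pr5 and Itgb1 higher in CD45RBhi libraries, and Ifngr1 and Ifngr2 move in opposite directions.

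Enzymes that build the glycans of such adhesion molecules changed strongly in both directions. Of 38 tested, 23 were higher and 7 lower (median 0.77; with library size only 11 were lower). St6gal1, which caps N-glycans with α2,6-linked sialic acid, was at 176, 179.999 and 180.4 CPM in the naive and 1.37, 3.91, 3.06 and 4.31 CPM in the CD45RBhi libraries (log2 fold change -5.81 ± 0.28, adjusted p = 4.16e-07). St8sia1, the synthase of the ganglioside GD3, fell from 31.2 ± 1.25 to 0.17 ± 0.277 CPM (log2 fold change -7.54 ± 0.56, adjusted p = 6.44e-06), and the sulfotransferase Chst15 from 60.5 ± 6.54 to 0.333 ± 0.239 CPM (log2 fold change -7.48 ± 0.33, adjusted p = 1.85e-07). The sialyltransferase St3gal6, which makes α2,3 linkages, went up, at 34.3, 33.5 and 32.8 CPM in the naive and 241, 233, 193 and 182 CPM in the CD45RBhi libraries (log2 fold change 2.66 ± 0.12, adjusted p = 2.60e-07). The groups overlapped for none of these 4. Galnt3, which starts O-glycans, rose from 0.0808 ± 0.0511 to 15.5 ± 2.05 CPM (log2 fold change 7.45 ± 0.32, adjusted p = 1.85e-07), and Fut8, the core fucosyltransferase, from 35.8 to 93.5 CPM (1.39). Gcnt1, which branches O-glycans and is needed for selectin ligands, rose from 0.212 to 3.63 CPM (4.04), and Fut7, the fucosyltransferase of those ligands, from 4.28 to 16.5 CPM (1.95).

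Among cytokine receptors, 15 of 29 tested chains were higher and 9 lower. Il2rb, the signalling chain shared by the IL-2 and IL-15 receptors, was at 364, 369 and 307 CPM in the naive and 1977, 1438, 1604 and 1944 CPM in the CD45RBhi libraries (log2 fold change 2.33 ± 0.13, adjusted p = 1.00e-06). The IL-7 receptor chain Il7r was at 638, 559.8 and 611 CPM in the naive and 1176, 1279, 1184 and 1192 CPM in the CD45RBhi libraries (log2 fold change 1.002 ± 0.074, adjusted p = 5.37e-06). Il18rap, of the receptor for the inflammatory cytokine IL-18, was at 10.7, 9.21 and 11.7 CPM in the naive and 601, 482, 760.04 and 583 CPM in the CD45RBhi libraries (log2 fold change 5.84 ± 0.19, adjusted p = 3.05e-08). Its partner Il18r1 (2.42), Il10ra (3.08) and both IL-12 receptor chains, Il12rb1 (2.46) and Il12rb2 (5.14), rose as well.

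The IL-6 receptor chains fell. Il6st, the shared chain gp130, was at 441, 500.2 and 379.6 CPM in the naive and 26.3, 25.8, 33.1 and 32.2 CPM in the CD45RBhi libraries (log2 fold change -3.91 ± 0.13, adjusted p = 3.78e-08), and Il6ra fell from 225 ± 39.03 to 14.9 ± 5.75 CPM (log2 fold change -3.92 ± 0.28, adjusted p = 4.78e-06). Il4ra (-1.46) and Il21r (-1.11) were lower too. Every CD45RBhi library was below every naive library for these 4 genes and above for Il2rb, Il7r and Il18rap. Among 22 JAK, STAT and SOCS genes, 6 were higher and 5 lower (3 without naive replicate 2 and 3 without CD45RBhi replicate 4). Stat4, which transmits the IL-12 signal, rose from 124 ± 8.102 to 272 ± 24.8 CPM (log2 fold change 1.13 ± 0.094, adjusted p = 1.12e-05). The feedback inhibitors Cish (2.11) and Socs2 (3.67) rose and Socs3 (-1.52) fell.

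The TGF-β pathway, which restrains T cells, had 8 of 19 tested genes lower and 3 higher (median -0.25). The co-receptor Tgfbr3 was at 69.4, 95.5 and 57.7 CPM in the naive and 6.09, 3.17, 3.06 and 0.947 CPM in the CD45RBhi libraries (log2 fold change -4.48 ± 0.43, adjusted p = 3.68e-05), and with Eng, described above, it made 2 co-receptors with a large decrease. The signal transducer Smad1 fell from 80.4 ± 1.35 to 21.1 ± 3.14 CPM (log2 fold change -1.93 ± 0.13, adjusted p = 2.66e-06), and the ubiquitin ligases Smurf1 and Smurf2, which limit the pathway, fell by 1.04 and 1.12 on the log2 scale. Smad3 rose from 44.9 to 150.4 CPM (1.74). The receptor chains Tgfbr1 (-0.72, adjusted p = 0.139) and Tgfbr2 (-0.17, adjusted p = 0.371) did not pass.

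Of 34 costimulatory and inhibitory receptors, 17 were higher and 6 lower (3 without naive replicate 2; median 0.30). Pdcd1, which encodes the inhibitory receptor PD-1, was at 2.61, 3.58 and 3.199 CPM in the naive and 73.3, 136, 131 and 118 CPM in the CD45RBhi libraries (log2 fold change 5.198 ± 0.26, adjusted p = 4.64e-07). Tigit, which binds the poliovirus receptor, was at 0.373, 0.421 and 0.35 CPM in the naive and 21.4, 21.7, 33.8 and 30.04 CPM in the CD45RBhi libraries (log2 fold change 6.11 ± 0.28, adjusted p = 2.60e-07), and Havcr2, which encodes TIM-3, rose from 0.467 ± 0.123 to 21.3 ± 5.68 CPM (log2 fold change 5.502 ± 0.32, adjusted p = 1.21e-06). Slamf7, a self-binding receptor of cytotoxic cells, was at 4.89, 3.74 and 6.35 CPM in the naive and 298, 234, 263 and 273 CPM in the CD45RBhi libraries (log2 fold change 5.74 ± 0.19, adjusted p = 3.05e-08). These 4 were higher in every memory library, as was Cd28, the costimulatory receptor for B7 ligands, which went from 151 ± 6.48 to 495 ± 34.4 CPM (log2 fold change 1.71 ± 0.083, adjusted p = 3.67e-07). Cd27, a costimulatory TNF receptor, was at 441, 416 and 441 CPM in the naive and 304, 437, 334 and 335 CPM in the CD45RBhi libraries and did not pass (log2 fold change -0.29, adjusted p = 0.0713). It passed at 0.00088 without CD45RBhi replicate 2 and at 0.0202 with library size only. The TNF receptor Tnfrsf9 was lower (-0.85), as was the inhibitory receptor Btla (-0.47).

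Antigen receptor signalling genes moved both ways, 11 higher and 8 lower of 32, and their median of 0.07 turned to -0.07 with library size only. Matk, which phosphorylates and restrains Src family kinases, was at 49.8, 53.8 and 59.4 CPM in the naive and 13.2, 11.8, 12.3 and 8.42 CPM in the CD45RBhi libraries (log2 fold change -2.25 ± 0.16, adjusted p = 3.85e-06). The Src kinase Fyn went from 497 ± 13.6 to 1246 ± 94.6 CPM (log2 fold change 1.33 ± 0.08, adjusted p = 1.38e-06), and its relative Lck rose by 0.53. The phosphatase Ubash3b (1.62) and the SLAM adaptor Sh2d1a (1.49) were higher, while Plcg1 (-0.74) and Rasgrp1 (-0.63), which carry the signal onward, were lower. The groups did not overlap for any of these 7 genes. Among 23 brakes of MAP kinases, 7 were higher and 7 lower. Dusp5 rose from 26.4 ± 1.84 to 156 ± 10.2 CPM (log2 fold change 2.56 ± 0.099, adjusted p = 8.53e-08), while Dusp6, which also acts on ERK, fell from 58.7 ± 4.14 to 11.7 ± 1.59 CPM (log2 fold change -2.32 ± 0.13, adjusted p = 9.58e-07). Dusp14 (6.48) and the adaptor Dok2 (1.68) were higher and Dusp2 (-1.08) lower.

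Of 35 regulators of G-protein signalling, 13 were higher and 12 lower. The G-protein subunits Gna15 and Gng2 rose from 16.8 to 106 CPM (2.66) and from 24.98 to 83.9 CPM (1.75). Rgs10, which speeds the end of a G-protein signal, was at 78.4, 70.8 and 73.6 CPM in the naive and 5.08, 9.02, 6.77 and 9.52 CPM in the CD45RBhi libraries (log2 fold change -3.29 ± 0.20, adjusted p = 1.30e-06), and Pde4b, which degrades cyclic AMP, fell from 225 ± 5.37 to 76.8 ± 3.78 CPM (log2 fold change -1.55 ± 0.076, adjusted p = 3.70e-07). With Ramp1 these were the decreases with the smallest p in the list, and neither Rgs10 nor Pde4b overlapped between the groups.

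Transcription factors of effector cells rose in 25 of 41 and fell in 6 (median 1.23). Tbx21, which encodes T-bet and drives effector genes, was at 14.6, 12.8 and 18.7 CPM in the naive and 841, 818, 856 and 891 CPM in the CD45RBhi libraries (log2 fold change 5.79 ± 0.15, adjusted p = 7.36e-09). Bhlhe40, a repressor linked to cytokine production, was at 1.31, 0.526 and 1.0996 CPM in the naive and 337, 299, 301 and 267 CPM in the CD45RBhi libraries (log2 fold change 8.24 ± 0.22, adjusted p = 9.99e-09). Id2, an inhibitor of E proteins, was at 107, 105 and 103 CPM in the naive and 1186, 959, 889 and 867 CPM in the CD45RBhi libraries (log2 fold change 3.21 ± 0.12, adjusted p = 8.53e-08). The 4 memory libraries lay within a narrow band for Tbx21, and in all 3 genes far above naive. Rora (3.81) and Runx2 (5.99) rose as well, and Zeb2, a repressor that favours terminal effector cells, from 1.13 ± 0.451 to 133 ± 38.9 CPM (log2 fold change 6.87 ± 0.34, adjusted p = 5.16e-07). The 6 that fell were Ahr and factors induced by antigen receptor or stress signals: Nr4a1 (-1.76), Egr1 (-2.79), Egr2 (-3.68), Egr3 (-4.08) and Fos (-3.57).

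Of 29 factors of naive and memory cells, 13 were lower and 7 higher (median -0.37). Lef1, a partner of β-catenin, was at 1057, 1151 and 1153 CPM in the naive and 284, 356, 292 and 324 CPM in the CD45RBhi libraries (log2 fold change -1.83 ± 0.092, adjusted p = 4.46e-07). Tcf7, which encodes TCF1 and sustains memory, was at 2341, 2195 and 2059 CPM in the naive and 1257, 1447, 1387 and 1404 CPM in the CD45RBhi libraries (log2 fold change -0.68 ± 0.076, adjusted p = 8.87e-05). Bach2, a repressor of effector genes, was at 118, 128 and 116 CPM in the naive and 29.3, 24.6, 28.7 and 35.4 CPM in the CD45RBhi libraries (log2 fold change -2.03 ± 0.12, adjusted p = 1.50e-06). All were lower in each CD45RBhi library, though Tcf7 kept most of its naive level. The chromatin organizer Satb1 fell from 909.98 ± 51.9 to 341 ± 20.5 CPM (log2 fold change -1.41 ± 0.076, adjusted p = 6.88e-07) and Foxo1, a factor of quiescence and homing, from 441 ± 4.75 to 202 ± 9.996 CPM (log2 fold change -1.13 ± 0.07, adjusted p = 1.63e-06). Eomes, the other T-box factor of CD8 T cells, rose, at 42.4, 47.7 and 38.4 CPM in the naive and 194, 158, 162 and 149.6 CPM in the CD45RBhi libraries (log2 fold change 1.95 ± 0.12, adjusted p = 1.71e-06). Id3, which marks long-lived memory cells, was at 79.5, 93.2 and 94.7 CPM in the naive and 9.09, 60.3, 40.6 and 40.6 CPM in the CD45RBhi libraries (log2 fold change -1.24 ± 0.45, adjusted p = 0.0531). CD45RBhi replicate 1 was the lowest for Id3, and without it the log2 fold change was -0.90 (adjusted p = 0.00242).

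Chromatin modifiers were more often lower, in 17 of 43, than higher, in 5 (3 without naive replicate 1, 2 without naive replicate 2, 3 without naive replicate 3 and 8 without CD45RBhi replicate 2, and 2 with library size only; median -0.27). Tet1, which oxidizes methylated cytosine, was at 17.8, 14.3 and 25.04 CPM in the naive and 1.98, 3.47, 2.11 and 2.42 CPM in the CD45RBhi libraries (log2 fold change -2.92 ± 0.26, adjusted p = 1.77e-05), and Tet3 fell by 1.48 on the log2 scale. Dnmt3a, a DNA methyltransferase, fell by 0.65, the Polycomb members Cbx2 and Pcgf5 by 1.36 and 0.95, and the histone deacetylase Hdac4 by 1.003. Ezh2, the Polycomb methyltransferase that accompanies division, was higher, at 14.6, 16.3 and 13.6 CPM in the naive and 34.9, 43.4, 50.2 and 33.1 CPM in the CD45RBhi libraries (log2 fold change 1.45 ± 0.17, adjusted p = 0.000115). The groups overlapped for none of these 7 genes.

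Of the 27 tested S100 proteins, annexins, galectins and their neighbours in function, 22 were higher and 0 lower (median 1.51; 1 lower with library size only). Anxa1, an annexin that binds membranes in response to calcium, was at 0.699, 0.947 and 0.3 CPM in the naive and 122, 137, 122 and 102 CPM in the CD45RBhi libraries (log2 fold change 7.53 ± 0.26, adjusted p = 4.59e-08). Anxa2 was at 20.3, 18.7 and 23.9 CPM in the naive and 420.4, 464, 499.99 and 443 CPM in the CD45RBhi libraries (log2 fold change 4.44 ± 0.12, adjusted p = 9.77e-09), and its partner S100a10 rose by 1.79. Lgals3, a galectin that binds cell surface glycans, was at 3.22, 1.84 and 1.55 CPM in the naive and 205, 234, 237 and 246 CPM in the CD45RBhi libraries (log2 fold change 6.69 ± 0.23, adjusted p = 3.78e-08). These were higher in each memory library than in any naive library, as were the nuclear lamin Lmna (3.24) and the scaffold Ahnak (3.48). Lgals9 was at 389 to 356 CPM and did not pass.

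Regulators of the actin cytoskeleton were higher in 25 and lower in 8 of 55. Myo1f, a myosin of leukocytes, was at 144, 141 and 149.7 CPM in the naive and 1194, 1199.9, 1347 and 1308 CPM in the CD45RBhi libraries (log2 fold change 3.12 ± 0.082, adjusted p = 8.59e-09). Myo1e (3.41) and the GTPase activator Arhgap26 (2.502) rose, and Rhoh, an atypical small GTPase of T cells, fell from 569.5 ± 18.2 to 283 ± 4.6002 CPM (log2 fold change -1.01 ± 0.064, adjusted p = 1.95e-06). The α-actinins Actn1 (-2.41) and Actn2 (-2.76) were lower while Actn4 was slightly higher (0.29). The groups did not overlap for these 7 genes.

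Among families of lymphocyte surface and survival proteins, the GIMAP GTPases, which support lymphocyte survival, were higher in 7 of 8 with 0 lower (median 0.46). Gimap7 was at 117, 97.999 and 115 CPM in the naive and 299.7, 387, 332 and 382 CPM in the CD45RBhi libraries (log2 fold change 1.67 ± 0.12, adjusted p = 3.58e-06) and Gimap4 went from 633 ± 67.8 to 1385 ± 104 CPM (log2 fold change 1.13 ± 0.096, adjusted p = 1.37e-05), while the other 5 called rose by 0.41 to 0.50. LY6 and MS4A proteins were higher in 11 and lower in 4 of 22 (1 without naive replicate 1, 2 without naive replicate 2 and 2 without CD45RBhi replicate 3). Ly6c2, whose product Ly6C marks memory and effector cells, was at 399, 317 and 347 CPM in the naive and 2619.6, 1709, 2129 and 1972 CPM in the CD45RBhi libraries (log2 fold change 2.57 ± 0.15, adjusted p = 1.21e-06), and Ly6a, the gene of Sca-1, rose from 61.2 ± 36.1 to 458 ± 44.8 CPM (log2 fold change 2.901 ± 0.33, adjusted p = 0.000124). Ly6c1 and Ly6c2 are near-identical, so their reads may be split. MHC class I and peptide loading genes were higher in 11 and lower in 3 of 24 (1 without naive replicate 1, 1 without naive replicate 2, 1 without CD45RBhi replicate 3 and 1 without CD45RBhi replicate 4), and their median was 0.13 (-0.000578 with library size only). H2-K1 went from 5068 ± 342 to 7702 ± 408 CPM (log2 fold change 0.604 ± 0.073, adjusted p = 0.00015) and H2-D1 rose by 0.68. Both class I genes, and Ly6c2, Ly6a, Gimap7 and Gimap4, did not overlap between the groups.

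Interferon-stimulated genes, which cells switch on under interferon, were lower in 24 of 48 and higher in 7 (4 without naive replicate 2 and 4 without CD45RBhi replicate 3; median -0.44). Ifit1, which binds viral RNA, was at 122, 81.999 and 77.1 CPM in the naive and 18.9, 35.9, 26.2 and 27.8 CPM in the CD45RBhi libraries (log2 fold change -1.78 ± 0.22, adjusted p = 0.000179). Gbp9, a guanylate-binding protein, was at 266, 222 and 195 CPM in the naive and 74.3, 79.6, 90.7 and 71.9 CPM in the CD45RBhi libraries (log2 fold change -1.53 ± 0.12, adjusted p = 9.00e-06), and Ifi27l2a fell from 95.8 ± 24.3 to 29.7 ± 6.51 CPM (log2 fold change -1.69 ± 0.20, adjusted p = 0.00015). The decreases were thus seen in effectors of several kinds, and a link to the lower receptor chain Ifngr2 was not tested. The exceptions included Oas1a, a sensor of double-stranded RNA, at 14.6, 10.6 and 9.197 CPM in the naive and 29.2, 41.5, 41.7 and 36.5 CPM in the CD45RBhi libraries (log2 fold change 1.699 ± 0.19, adjusted p = 0.000105), and Gbp3, which rose from 33.004 ± 9.03 to 93.5 ± 3.86 CPM (log2 fold change 1.501 ± 0.16, adjusted p = 7.67e-05). None of these 5 overlapped between the groups. Irf7, a regulator of the response, was at 154 to 164 CPM and did not pass (0.08, adjusted p = 0.754).

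Of 40 genes of cell death and survival, 15 were higher and 5 lower (2 without naive replicate 1, 3 without naive replicate 2 and 3 without CD45RBhi replicate 4; 8 with library size only). Bcl2, the survival protein downstream of IL-7, was at 183, 208 and 254 CPM in the naive and 224, 236, 218 and 206 CPM in the CD45RBhi libraries and did not pass (log2 fold change 0.04, adjusted p = 0.798). Its relative Bcl2l1, which encodes Bcl-xL, was at 19.3, 19.5 and 18.5 CPM in the naive and 97.01, 88.3, 78.8 and 85.7 CPM in the CD45RBhi libraries (log2 fold change 2.19 ± 0.11, adjusted p = 3.70e-07). Bcl2a1d and Bcl2a1b, copies of another relative whose reads may be split, rose by 4.05 and 2.14. On the other side, the death-promoting Pmaip1 rose from 5.33 ± 0.497 to 39.3 ± 4.21 CPM (log2 fold change 2.88 ± 0.15, adjusted p = 4.64e-07) and the inflammatory caspase Casp1 from 3.22 ± 0.659 to 63.4 ± 14.3 CPM (log2 fold change 4.29 ± 0.24, adjusted p = 8.86e-07). Bcl2 values overlapped between the groups, and those of the other 5 did not.

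Cell cycle genes were higher in 41 of 60 and lower in 2 (1 without naive replicate 1 and 1 without naive replicate 3; median 1.13), and 32 rose at least 2-fold. Mki67, a marker of dividing cells, was at 1.26, 0.789 and 2.05 CPM in the naive and 12.6, 5.15, 16.5 and 19.6 CPM in the CD45RBhi libraries (log2 fold change 3.29 ± 0.50, adjusted p = 0.000697), and Tyms, the thymidylate synthase, at 7.504, 5.79 and 7.797 CPM in the naive and 34.2, 33.7, 28.7 and 35.7 CPM in the CD45RBhi libraries (log2 fold change 2.23 ± 0.15, adjusted p = 3.21e-06). Pcna, a clamp of DNA replication, rose from 79.3 to 98.1 CPM (0.31). Ccnd3, a D-type cyclin, was at 372, 355 and 359 CPM in the naive and 1053, 866, 858 and 923 CPM in the CD45RBhi libraries (log2 fold change 1.35 ± 0.089, adjusted p = 2.40e-06). Genes that oppose division rose beside them: Btg2 was at 89.6, 102 and 82.7 CPM in the naive and 403, 354, 362 and 369.9 CPM in the CD45RBhi libraries (log2 fold change 2.02 ± 0.097, adjusted p = 3.36e-07) and Tob1 went from 32.7 ± 1.04 to 92.5 ± 7.69 CPM (log2 fold change 1.499 ± 0.10, adjusted p = 2.76e-06). The groups did not overlap for Mki67, Tyms, Ccnd3, Btg2 or Tob1.

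**Figure D4:**
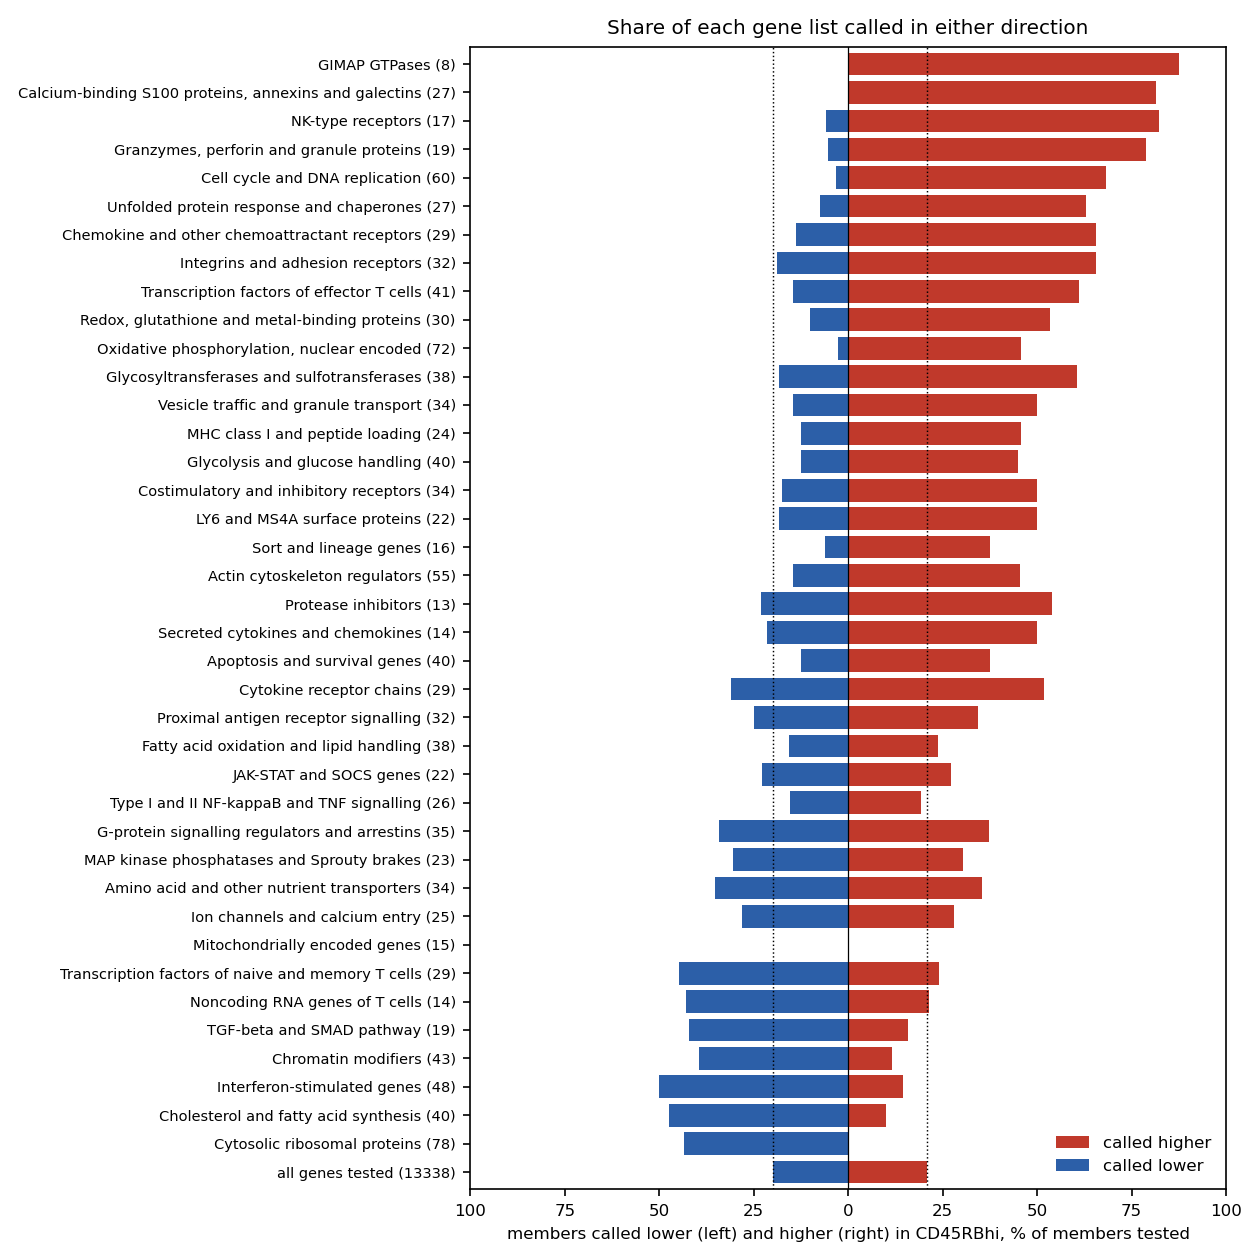
Share of the tested members of each list called higher (red, right) and lower (blue, left) in CD45RBhi cells, with the number tested in brackets and dotted lines at the shares over all genes (20.9% and 19.9%). GIMAP GTPases (7 of 8 higher) stand at the top, and cytosolic ribosomal proteins (34 of 78 lower) at the bottom above all genes tested.

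In glucose metabolism 18 of 40 genes were higher and 5 lower (median 0.31; 8 lower with library size only). Pdk1, a kinase that inhibits pyruvate dehydrogenase, was at 674, 682 and 695 CPM in the naive and 90.8, 123, 111 and 107 CPM in the CD45RBhi libraries (log2 fold change -2.66 ± 0.10, adjusted p = 8.24e-08). The phosphofructokinase Pfkp was at 308, 316 and 292 CPM in the naive and 762, 946, 870.2 and 854 CPM in the CD45RBhi libraries (log2 fold change 1.49 ± 0.088, adjusted p = 1.22e-06). The glucose transporters Slc2a3 (1.36) and Slc2a1 (0.88) and the aldolase Aldoa (0.603) were higher, while lactate dehydrogenase B (Ldhb) fell by 2.15 on the log2 scale. Ldha was at 1190.2 to 1207 CPM and did not pass. Pdk1 and Pfkp, as the other genes named as higher or lower here, had no overlap between the groups.

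Genes of sterol and fatty acid synthesis were lower in 19 of 40 and higher in 4 (2 without naive replicate 2, 2 without naive replicate 3 and 2 without CD45RBhi replicate 3, and 2 with library size only; median -0.40). Hmgcs1, the synthase at the start of the mevalonate pathway, was at 72.2, 85.5 and 81.9 CPM in the naive and 36.4, 28.3, 42.9 and 40.7 CPM in the CD45RBhi libraries (log2 fold change -1.11 ± 0.14, adjusted p = 0.000249), and Cyp51, a later sterol enzyme, fell from 59.7 ± 1.75 to 30.5 ± 3.64 CPM (log2 fold change -0.97 ± 0.12, adjusted p = 0.000138). The regulator of these genes, Srebf2, fell by 1.10 on the log2 scale, and the exporter Abca1 fell by 3.402. A link between the decreases of these 4 genes was not tested. The 4 that rose were Ebp (0.78), Elovl1 (0.66), Nr1h2 (0.34) and Acly (0.31).

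Fatty acid oxidation and lipid handling had 9 higher and 6 lower of 38, close to the shares over all genes. Single members changed by far more: the oxysterol-binding protein Osbpl3 was at 0.513, 1.05 and 0.75 CPM in the naive and 225, 189, 229 and 229 CPM in the CD45RBhi libraries (log2 fold change 8.15 ± 0.20, adjusted p = 6.51e-09), and Aqp9, a channel for glycerol, rose from 2.09 ± 0.614 to 40.2 ± 11.998 CPM (log2 fold change 4.26 ± 0.30, adjusted p = 4.01e-06). The acyl-CoA synthetase Acsl3 fell from 14.9 ± 1.58 to 0.399 ± 0.409 CPM (log2 fold change -5.25 ± 0.61, adjusted p = 0.000138), while Acsbg1 rose by 1.42. The carnitine transferase Cpt1a, which admits fatty acids to mitochondria, was at 142 to 119.9 CPM and did not pass (-0.24, adjusted p = 0.245).

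Transporters of nutrients and ions, 12 higher and 12 lower of 34, held large changes in both directions. Atp1b1, a subunit of the sodium pump, was at 137, 127 and 142 CPM in the naive and 1.73, 1.36, 1.003 and 0.789 CPM in the CD45RBhi libraries (log2 fold change -6.78 ± 0.20, adjusted p = 1.54e-08), and the monocarboxylate transporter Slc16a5 fell from 144 ± 2.98 to 7.002 ± 2.602 CPM (log2 fold change -4.36 ± 0.23, adjusted p = 5.91e-07). The calcium pump Atp2b1 rose from 112 ± 9.65 to 365 ± 42.7 CPM (log2 fold change 1.71 ± 0.11, adjusted p = 2.33e-06). Among 25 ion channels, 7 were higher and 7 lower. The potassium channel Kcnk5 was at 0.559, 0.579 and 0.7 CPM in the naive and 130.2, 81.5, 119.7 and 102 CPM in the CD45RBhi libraries (log2 fold change 7.45 ± 0.24, adjusted p = 3.05e-08), Kcnk6 rose by 4.33 and Trpv2, a calcium-permeable channel, by 1.02. With Kcnj8 higher and Kcna2 and Kcna3 (-0.87) lower, the channels that pass potassium differed between the groups. The ATP-gated channel P2rx4 fell from 47.6 ± 8.04 to 17.9 ± 2.84 CPM (log2 fold change -1.41 ± 0.16, adjusted p = 8.60e-05).

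Nuclear genes of oxidative phosphorylation were higher in 33 of 72 and lower in 2 (median 0.27), but none by 2-fold. The number higher was 21 without naive replicate 1 and 18 without naive replicate 2, and 14 with library size only. The 2 lower were Ndufa10 and Ndufs1, and this number was 5 with library size only, 1 with relative log expression scaling and 0 without any 1 of the naive libraries or of CD45RBhi replicates 1, 3 and 4. Cox6b1, a subunit of cytochrome oxidase, was at 94.5, 87.3 and 96.6 CPM in the naive and 156, 132, 154 and 168 CPM in the CD45RBhi libraries (log2 fold change 0.71 ± 0.098, adjusted p = 0.000342), and Atp5h, of the ATP synthase, at 151, 145 and 162 CPM in the naive and 262, 217, 235 and 266 CPM in the CD45RBhi libraries (log2 fold change 0.68 ± 0.094, adjusted p = 0.000341). In both genes every CD45RBhi library was above every naive library, but neither passed the test against a 1.5-fold change (adjusted p = 0.153 and 0.232). None of 15 mitochondrially encoded genes passed in edgeR (1 in DESeq2 and 1 with library size only, 8 lower without CD45RBhi replicate 1), and all 15 overlapped between the groups. The share of counts from these genes was 0.716% to 0.916% in naive libraries and 0.320% to 0.957% in CD45RBhi libraries, lowest in replicate 2.

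Cytosolic ribosomal protein genes were lower in 34 of 78 and higher in 0 (median -0.33), again without a 2-fold change. With library size only 53 were lower, and 1 was higher without CD45RBhi replicate 2. Rpl3 was at 1094, 1003 and 1041 CPM in the naive and 719, 655, 661 and 694 CPM in the CD45RBhi libraries (log2 fold change -0.62 ± 0.069, adjusted p = 8.90e-05) and Rpl12 at 229.5, 216 and 221 CPM in the naive and 146, 114, 115 and 135 CPM in the CD45RBhi libraries (log2 fold change -0.802 ± 0.099, adjusted p = 0.000175), and both were lower in every memory library. Pseudogenes share sequence with these genes, so their counts are uncertain. Gas5 and Snhg5, noncoding hosts of small nucleolar RNAs, moved with them, from 95.2 ± 13.5 to 47.3 ± 5.62 CPM (log2 fold change -1.01 ± 0.13, adjusted p = 0.000209) and with a log2 fold change of -1.74. Of 14 noncoding genes, 3 were higher and 6 lower, and AW112010, an interferon-inducible transcript of T cells, was at 372, 284 and 331 CPM in the naive and 1141, 916, 1158 and 1174 CPM in the CD45RBhi libraries (log2 fold change 1.74 ± 0.12, adjusted p = 3.71e-06).

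Chaperones and genes of the unfolded protein response were higher in 17 of 27 and lower in 2 (median 0.69; 0 without naive replicate 1, 0 without naive replicate 2 and 4 without CD45RBhi replicate 2, and 1 without naive replicate 3 or CD45RBhi replicate 3 or 4, and 4 with library size only). Xbp1, a transcription factor of the response, was at 73.4, 68.4 and 69.6 CPM in the naive and 166, 181, 152 and 169.9 CPM in the CD45RBhi libraries (log2 fold change 1.25 ± 0.088, adjusted p = 4.01e-06), and the sensor Atf6 at 7.97, 4.99996 and 6.298 CPM in the naive and 74.9, 38.7, 59.4 and 50.3 CPM in the CD45RBhi libraries (log2 fold change 3.12 ± 0.26, adjusted p = 1.06e-05). The chaperone Hsp90b1 (1.06), the isomerase Pdia4 (0.76) and Sdf2l1 (1.96) rose, while Atf4 and Ddit3, of another arm of the response, were at 66.9 to 58.9 CPM and 25.02 to 20.5 CPM and did not pass. Redox genes were higher in 16 of 30 and lower in 3 (10 higher with library size only). Txn1, thioredoxin, went from 61.4 ± 6.098 to 134 ± 18.3 CPM (log2 fold change 1.12 ± 0.13, adjusted p = 0.000105) and Srxn1, sulfiredoxin, from 0.266 ± 0.0437 to 9.82 ± 2.097 CPM (log2 fold change 5.18 ± 0.30, adjusted p = 1.11e-06). Genes of vesicle traffic were higher in 17 and lower in 5 of 34 (median 0.52). Sytl2, which docks secretory granules, was at 17.2, 19.3 and 19.4 CPM in the naive and 157, 99.1, 129 and 111 CPM in the CD45RBhi libraries (log2 fold change 2.73 ± 0.17, adjusted p = 1.49e-06), while the endosomal protein Ehd1 fell from 174 ± 20.7 to 45.97 ± 5.27 CPM (log2 fold change -1.92 ± 0.12, adjusted p = 1.68e-06).

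Signalling to NF-κB lay close to the shares over all genes, with 5 of 26 higher, 4 lower and none by 2-fold (3 without naive replicate 1, 2 without naive replicate 2, 1 without naive replicate 3 and 3 without CD45RBhi replicate 3 were higher, 2 without naive replicate 2 were lower and 1 with library size only was higher). The subunits Nfkb1 (0.08) and Rel (0.34) did not pass, and the feedback inhibitor Tnfaip3 rose from 72.4 ± 5.08 to 115 ± 14.1 CPM (log2 fold change 0.67 ± 0.11, adjusted p = 0.00123). Of 5 genes chosen because their interval lay within a 1.2-fold change either way, Coro1a, of the actin cytoskeleton, was at 3510.3, 3279 and 3352 CPM in the naive and 3136, 3548, 3358 and 3257 CPM in the CD45RBhi libraries (log2 fold change -0.02 ± 0.067). The others had log2 fold changes near 0: Vav1 (-0.02), Atp5b (-0.03), Atp5a1 (0.09) and Sdha (-0.1004; -0.24 and adjusted p = 0.0251 with library size only).

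**Figure D5:**
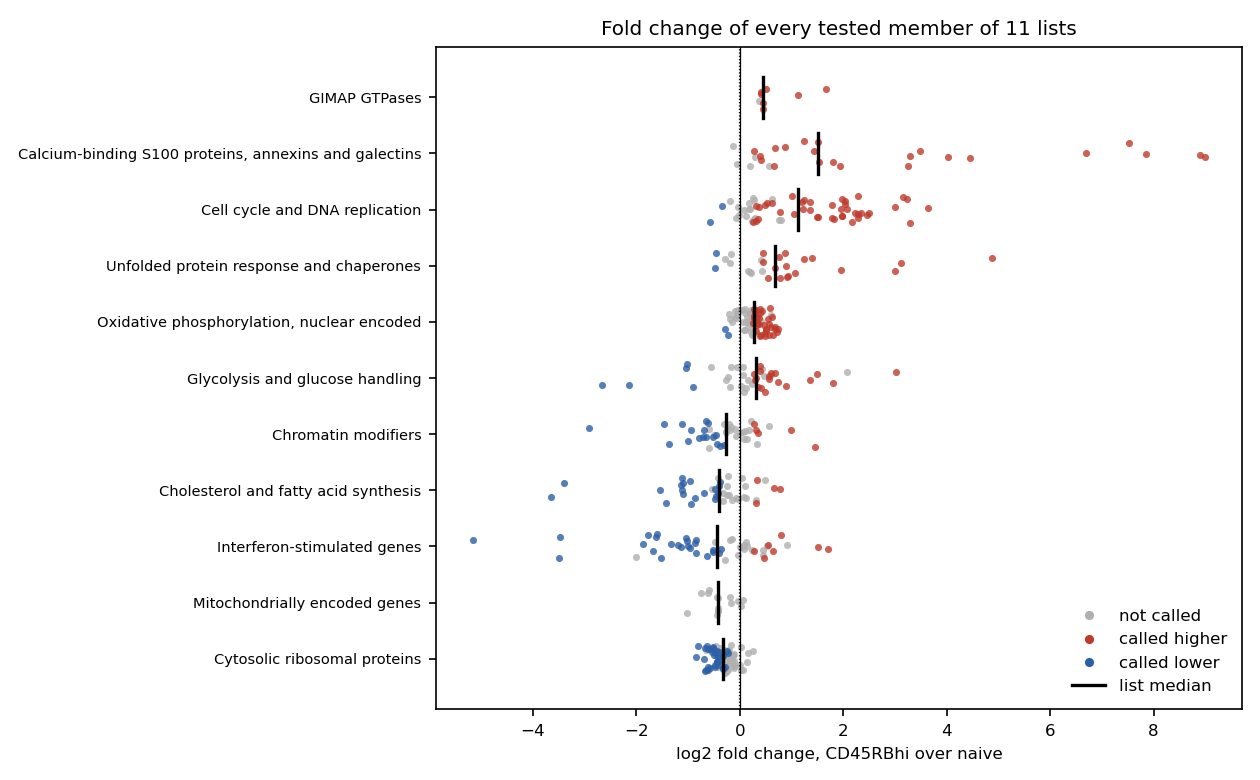
Log2 fold change (CD45RBhi over naive) of every tested member of 11 lists, red where called higher, blue where called lower and grey where not called, with a black bar at each list's median and dotted and solid lines at the median of all genes (-0.02) and at 0. Oxidative phosphorylation and ribosomal protein genes shift by less than 1, while members of the other families reach larger changes in single genes.

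Called genes that neighbour each other on the chromosome and moved the same way were read from GENCODE M21 (GRCm38), as a description made after the values were seen. The longest run held 15 tested genes in a row on chromosome 6, from 129533160 to 133110899, all higher, among them Klre1, Klrd1, Klrk1, Klrc1 and Klra9 of the NK gene complex (log2 fold changes 0.43 to 9.48). On chromosome 11, from 83511736 to 83664683, 7 neighbours including Ccl5, Ccl3 and Ccl4 were higher (3.79 to 8.42). On chromosome 13, from 113035111 to 114157461, 7 were higher, with Gzma and Gzmk side by side (0.78 to 10.91). These 3 runs include genes of secreted or surface products of cytotoxic cells, beside genes of other kinds. Serpinb6b and Serpinb9 lie in a run of 6 higher genes on chromosome 13 (32802038 to 33094380), and Ly6a and Ly6c2 in one of 6 on chromosome 15 (74955051 to 75629827). Among lower runs, Satb1 lay among 10 lower genes on chromosome 17 (51736187 to 51863217), most of them unnamed transcripts within its locus whose reads cannot be told apart from its own, since the strand used in counting is not given. Gbp9 lay in a run of 6 lower genes on chromosome 5 (105077630 to 105490074), in which Gbp copies are similar in sequence. The share of tested genes called ran from 36.5% to 45.2% over the autosomes.

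The tetramer selects cells by their receptor, so V segment use is a description of that choice. Trav12-2 took 5.97, 7.22 and 7.46% of Trav counts in naive and 23.9, 17.5, 22.7 and 34.2% in CD45RBhi libraries, while the leading Trbv segment was Trbv16 in all 3 naive libraries (13 to 13.5%) and differed between memory libraries: Trbv19 (22.1%), Trbv17 (24.2% and 37.1%) and Trbv13-2 (19.8%) in replicates 1, 2 and 3, and 4.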

How the data were processed

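RNA from sorted spleen cells was sequenced in 7 libraries, 3 naive and 4 CD45RBhi. The deposited values are whole-number read counts per Ensembl gene, made by the authors. SAMtools, featureCounts and DESeq2 with the mouse build mm10 (GRCm38) were used, per the submitters' processing notes, which give no versions. For the aligner, annotation release and strand setting, nothing was given in the sources used. The table held 52636 genes, of which 6417 had no symbol and 27 had a number in its place, and these were kept by identifier.

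Counts were filtered with filterByExpr (minimum count 10), which left 13338 genes. They were scaled by TMM and tested two-sided with the quasi-likelihood F test of edgeR (edgeR 4.0.16, limma 3.58.1, R 4.3.3), with Benjamini-Hochberg adjustment over all 13338 genes and a threshold of 0.05. CPM values are on TMM-scaled library sizes, errors of means are SD (n = 3 naive, n = 4 CD45RBhi), and errors of log2 fold changes are SE. The biological coefficient of variation was 18%. Replicate pairs differed by more than sampling noise (chi-square per degree of freedom 10.2 to 93.3), so none was counted as a duplicate. Where a group had 0 counts, a fold was bounded with 3 counts over the group (0.0496 CPM in naive, 0.0369 CPM in CD45RBhi), and intervals and floors cover counting error only. The fit was tested on simulated data with known changes.

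The 47 gene lists (1467 entries), like the comparison itself, were chosen with earlier results of these data known, and no list was tested as a set. Genes were named by a rule: up to 15 per direction with the largest change among called genes of at least 20 CPM in the higher group and no overlap, up to 5 called members per list by p, a fixed set, and up to 5 steady genes of at least 50 CPM. Outside the rule, these were chosen after their values were seen: Abca1, Acly, Actn1, Actn4, Adora2a, Ahnak, Ahr, Atf4, Btla, Cd22, Cpt1a, Ctsl, Ddit3, Dnmt3a, Egr1, Egr2, Egr3, Fcer1g, Fcgr3, Fos, Fut7, Gcnt1, Gpr183, Ifngr1, Il12rb1, Il12rb2, Il21r, Il4ra, Il6ra, Irf7, Itga4, Itgal, Itgb7, Kcna3, Klrd1, Lck, Ldha, Ldhb, Lgals9, Lmna, Lta, Ltb, Mki67, Ndufa10, Ndufs1, Nfkb1, Nr1h2, Nr4a1, Pcna, Plcg1, Ptger2, Rasgrp1, Rel, S100a10, S1pr1, Smad3, Socs3, Srebf2, Stxbp2, Tet3, Tgfbr1, Tgfbr2, Tnf, Tnfrsf9, Tyrobp, Unc13d and Zeb2. Alternatives were library size only, relative log expression scaling, DESeq2 1.42.0, no filter, a mean of at least 1 CPM, a fit of all 11 libraries, a replicate block, a test against a 1.5-fold change, and leaving out each library. The 6 promoters are those of the first 3 genes per direction with an entry in RefSeq's table, leaving out a chromosome whose sequence is not printed. Positions came from GENCODE M21, which matched 13319 of the 13338 tested identifiers. Some genes that the rule names are not reported here. Figures were drawn with matplotlib 3.10.9.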

Additional observations from a re-analysis of the deposited data

Results flagged for a closer look

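Of 245 named genes, 15 had 1 CD45RBhi library that stood apart from the other 3, where chance flags about 1 in 20 groups. That number is near the share that chance gives, so the flags describe single values. Most of them fell in replicates 2 and 1, which also lay at the ends of the second principal component (-17.5 and 24.2). Whether a library stands apart was not tested. In replicate 2, Gzmk (186.8 CPM, the others 249.9 to 252.4), Osbpl3 (188.9 CPM, nearest 225.2) and the transcript AW112010 (915.7 CPM, nearest 1141) were low. In the same library Slc16a5 (10.86 CPM; nearest 6.196), P2rx4 (22.17 CPM; nearest 16.91), Il7r (1279 CPM; nearest 1192) and Vav1 (496 CPM; nearest 469.1) were high.

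In replicate 1, Itga1 (74.46 CPM, nearest 45.8) and Xcr1 (11.17 CPM, nearest 7.155) were high. Ampd1 (0.05079 CPM, 1 count), Kcna2 (0.1524 CPM, 3 counts) and the B cell kinase Blk (0.4063 CPM) were detected there alone among the CD45RBhi libraries. In replicate 3, Ptprv was high (4.615 CPM; nearest 1.315) and the carbonic anhydrase Car2 low (0.602 CPM; nearest 1.232). In replicate 4, Srxn1 was high (12.94 CPM; nearest 9.091). All 15 flags lie within the memory group, because groups of 3 are not tested for such values.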

How the results depend on the processing

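The number of genes called was within 1.5 times of 5443 under each setting but the test against a 1.5-fold change, which called 2360 (1254 higher, 1106 lower). It was 5822 with library size only, 5460 with relative log expression scaling, 5804 with DESeq2, 5519 with no filter, 4962 with a mean of at least 1 CPM and 5688 in the fit of all 11 libraries. Leaving out 1 library gave 4307 to 6115 called genes, 2319 to 3124 higher and 1942 to 2991 lower, and 2353 to 2561 called genes of at least 2-fold. No gene called both in the reported fit and under another setting changed direction. Library size only shared 4812 of its calls with the reported fit, and DESeq2 5405. Of 249 named genes, 219 kept their side of the threshold in the test against 1.5-fold, and 244 to 249 under the other settings. Cd8b1 (adjusted p = 0.252) and Rela (0.105) lost their call with library size only. Rela was also lost without naive replicate 3 (adjusted p = 0.0518), and Ikbkb (0.0611) and Cd8b1 (0.0601) without naive replicate 2. Cd3e passed without CD45RBhi replicate 2 (0.0159), in DESeq2 (0.048), with no filter (0.0422) and with all 11 libraries (0.0354).

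Same-numbered naive and CD45RBhi libraries did not deviate together (correlations -0.056, -0.113 and -0.0408), so the numbers were not taken to pair the samples. With replicate number as a block 3786 genes were called, 1987 higher and 1799 lower, Cd8b1 (0.138) and Rela (0.0711) lost their call and Id3 (0.0415) passed. Depth limits genes near 3 counts a library, for which only bounds or counting intervals are given.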
